A study of Mus musculus with 4 samples.

Results

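The genes described here are 43 genes of DNA replication and DNA repair, taken by symbol from a given list, out of 55401 genes in the deposited tables. All 43 were found, and all 43 averaged 1 CPM or more over the 4 libraries (CPM, counts scaled to a common library size), as did 12231 genes in all. RNA was sequenced from CD8+ T cells, which had been sorted from mouse lung on CD3 and CD8, with 1 library in each of 4 groups. All mice were of the strain C57BL/6J. The first group was the IPF-LC model given an antibody that depletes CD4 cells, and the second was IPF-LC given an isotype antibody. The third was the LC model with the depleting antibody, and the fourth was LC with the isotype antibody. The labels do not spell out IPF-LC or LC, and they give no age, no sex, no dose, no sampling time and no number of mice behind a library. The comparisons answer how the replication genes of lung CD8+ T cells differ with CD4 depletion in each model, and between the models under each antibody.

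A cell copies its DNA in S phase. In G1, the origin recognition complex, Cdc6 and Cdt1 load rings of Mcm2 to Mcm7 onto the DNA, and Cdc45 with the GINS complex turns these rings into active helicases. Polymerases then copy the strands, held in place by the sliding clamp Pcna, while ribonucleotide reductase and related enzymes supply nucleotides, and E2F factors and cyclin E control the entry into this program. T cells turn this machinery on when they divide after activation, and its transcripts are low in resting T cells.

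The 4 libraries held between 14946569 and 16217672 counts, and TMM scaling factors lay between 0.961 and 1.03. The T cell identity named by the labels was present in each library, since none of the 10 CD8 T cell markers was at 0 and their summed level ranged from 5255 to 6198 CPM. Markers of other cells moved with the antibody. Markers of macrophages and monocytes, 15 in all, added up to 1140 CPM in the IPF-LC CD4-depleted library and 3391 in the IPF-LC isotype library, and to 198 CPM in the LC CD4-depleted library and 3451 in the LC isotype library. Of the defining ones, Fcgr1 and Marco were at 0 counts in the IPF-LC CD4-depleted library, and Adgre1, C1qa, Clec7a, Fcgr1 and Marco in the LC CD4-depleted library. The 10 CD4 and regulatory T cell markers summed to 396 CPM in the IPF-LC CD4-depleted library and 81.5 in its isotype library, and to 379 CPM in the LC CD4-depleted library and 197 in its isotype library. Of these sums, Ctla4 alone gave 219, 39.3, 196 and 92.1 CPM in that order. With depletion in IPF-LC 8 of the 10 were higher and 2 lower, Cd4 and Zbtb7b, each by at least 2-fold. Of all genes, 8.84% were that much higher there and 13.6% lower. In LC all 10 were higher, but only 3 by at least 2-fold, where 5.85% of all genes were. Ikzf4 in LC was nearly level, at 4.53 CPM in the CD4-depleted and 4.46 CPM in the isotype library. Zbtb7b had 0.19 and 1.79 CPM in the IPF-LC pair and 1.72 and 1.55 CPM in the LC pair. Cd4 itself had 0 and 73 counts in the IPF-LC CD4-depleted and isotype libraries, and 16 and 12 counts in the LC pair. Foxp3, the regulatory T cell factor, had 29.3 and 1.47 CPM in the IPF-LC CD4-depleted and isotype libraries, and 32.5 and 3.88 CPM in the LC pair. The part of these cells in the differences below was not tested. In bulk RNA, a smaller number of cells that express a gene and less RNA in each cell cannot be told apart.

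The start regions of the helicase genes are shown because E2F factors act at sites of this kind. RefSeq promoter windows on GRCm38.p6 reached from 250 bases before a gene's start to 50 bases after it, 300 bases in all, and 35 of the 43 genes had one. Each window was searched for TTTCCCGC, TTTGGCGC, TTTCGCGC and TTTGCCGC on both strands, which makes 8 forms of 8 bases each, and matches may overlap. Of the Mcm2 to Mcm7 set, 3 genes held a match before the start, and their 250 bases before the start follow 5′ to 3′ on the gene's strand, with capitals on the matched letters. The Mcm6 window lies on the minus strand at chr1:128359706-128359955, the Mcm7 window on the minus strand at chr5:138171884-138172133, and the Mcm5 window on the plus strand at chr8:75109259-75109508.
Mcm6: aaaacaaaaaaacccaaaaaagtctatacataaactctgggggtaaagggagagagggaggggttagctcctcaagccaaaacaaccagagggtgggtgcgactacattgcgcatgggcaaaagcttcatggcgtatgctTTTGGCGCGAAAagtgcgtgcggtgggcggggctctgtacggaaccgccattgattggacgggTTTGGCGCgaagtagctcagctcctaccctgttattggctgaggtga
Mcm7: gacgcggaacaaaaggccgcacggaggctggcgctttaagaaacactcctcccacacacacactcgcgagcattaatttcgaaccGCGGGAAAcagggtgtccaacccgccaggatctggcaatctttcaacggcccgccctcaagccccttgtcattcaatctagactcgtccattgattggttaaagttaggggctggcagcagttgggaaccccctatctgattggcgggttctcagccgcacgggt
Mcm5: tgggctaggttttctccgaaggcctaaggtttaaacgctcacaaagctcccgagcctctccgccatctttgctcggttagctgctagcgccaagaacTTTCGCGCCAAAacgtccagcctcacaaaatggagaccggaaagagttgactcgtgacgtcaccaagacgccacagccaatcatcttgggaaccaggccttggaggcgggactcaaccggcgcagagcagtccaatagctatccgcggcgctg
Mcm6 held 3 matches, starting 110, 106 and 47 bases before the start, the first pair of which overlap. Mcm7 held 1 match, starting 165 bases before the start, and Mcm5 held 2 overlapping matches, at 153 and 149 bases. In all, 15 of the 35 genes with a window held a match, which is 42.9%, against 704 of 27025 genes with a window, or 2.605%. The 15 were Mcm3, Mcm5, Mcm6, Mcm7, Gins3, Cdc6, Cdt1, Orc1, Pclaf, Pola1, Pold1, Rfc3, Lig1, Uhrf1 and Brca2. A match describes the letters of the window and is neither a binding site nor a cause of the values below.

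Summed over the 43 genes, the level was highest with CD4 depletion in LC and lowest with isotype antibody in IPF-LC. The summed TPM (relative transcript abundance, a level per length) of the 43 genes was 1370 in the IPF-LC CD4-depleted library and 1061 in the IPF-LC isotype library, and 1809 in the LC CD4-depleted library and 1451 in the LC isotype library. The LC CD4-depleted library had the highest CPM of the 4 for 31 of the 43 genes, where 22.1% of all 12231 genes had their highest there. The IPF-LC isotype library had the lowest for 34 of the 43, where 25.0% of all genes had their lowest there. No gene of the 43 was lowest in the LC CD4-depleted library, and 1, Brca2, was highest in the IPF-LC isotype library. The matching shares of all genes for those counts were not taken. The 43 genes were chosen with earlier results of these data known. Here and below, the shares of all genes therefore stand as a description and not as a test.

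**Figure D1:**
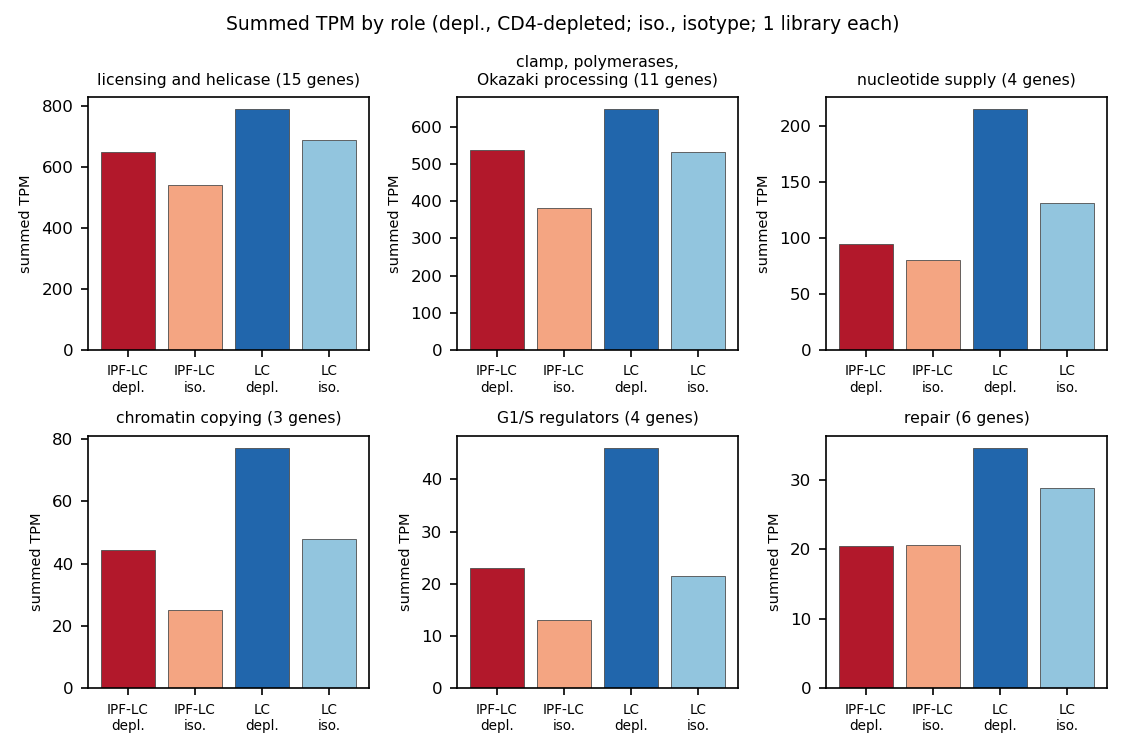
Summed TPM of the members of each of the 6 roles, 1 bar per library, with depl. for CD4-depleted and iso. for isotype, each bar being 1 library with no error. In 5 of the 6 panels the IPF-LC isotype bar is the lowest, and in the repair panel the IPF-LC CD4-depleted bar, at 20.4 TPM, lies beside the IPF-LC isotype bar at 20.6 TPM.

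Levels, ratios and intervals below are of TMM-scaled CPM, and a ratio is log2 of CD4-depleted over isotype or of IPF-LC over LC, with a prior count of 0.5. The brackets are exact binomial 95% intervals for counting error alone. Reads without molecular identifiers are not independent molecules, and the intervals hold no spread between mice, since no group has a replicate. A gene counts as apart here when its ratio is at least 2-fold, and no p-value is given between single libraries.

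With CD4 depletion in IPF-LC, 36 of the 43 genes were above and 7 below the isotype library, with a median log2 ratio of 0.53. Of all 12231 genes, 5896 were above and 6288 below, with a median of -0.02. At least 2-fold higher were 10 genes, Mcm10, Cdc6, Pclaf, Rfc3, Chaf1a, E2f1, E2f8, Ccne2, Brca1 and Fancd2, where 8.84% of all genes were that much higher. At least 2-fold lower was 1 gene, Brca2, where 13.6% of all genes were. With CD4 depletion in LC, 37 of the 43 were above and 6 below the isotype library, with a median of 0.56. Of all genes, 6185 were above and 6038 below, with a median of 0.01. Again 10 genes were at least 2-fold higher, Mcm10, Gins1, Pclaf, Rrm2, Uhrf1, E2f8, Ccne1, Ccne2, Brca2 and Exo1, where 5.85% of all genes were. That count was 4, Mcm10, Gins1, Pclaf and E2f8, with a median of 0.31, when the libraries were scaled on pan-T-cell genes, where 4.0% of all genes were. It was 5, Mcm10, Pclaf, Rrm2, Uhrf1 and E2f8, when the whole counting interval had to lie beyond 2-fold, where 2.98% of all genes did. None of the 43 was at least 2-fold lower, where 15.4% of all genes were. Chaf1b in IPF-LC lay just under 2-fold and Ccne1 in LC just over it, both with a log2 ratio of 1.00.

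The same 4 genes, Mcm10, Pclaf, E2f8 and Ccne2, were at least 2-fold higher with depletion in both models, where 1.65% of all genes were. Under pan-T-cell scaling Ccne2 was no longer 2-fold higher in LC, and Mcm10, Gins1, Pclaf and E2f8 were 2-fold higher in both, where 1.48% of all genes were. Ratios were above 0 in both models for 32 of the 43 genes, where 28.6% of all genes were, and below 0 in both for Pola1 and Pold1. The signs differed between the models for the other 9: Cdt1, Rfc3, Fen1 and Blm were above 0 in IPF-LC and below 0 in LC, and Mcm7, Ccne1, Brca2, Rad51ap1 and Exo1 the opposite. For 5 of the 43, Fen1, Blm, Ccne1, Brca2 and Rad51ap1, the counting intervals lay wholly on opposite sides of 0, where those of 19.5% of all genes did. Many ratios were small, and some turned sign with the scaling. Scaling on pan-T-cell genes moved the median ratio of all genes by 0.13 in IPF-LC and by -0.25 in LC, after which 37 genes were above 0 in IPF-LC and 30 in LC. Across the 43 genes the 2 ratios had a Pearson r of 0.18, and across all 12231 genes 0.39, as a description across genes, which are not independent replicates.

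**Figure D2:**
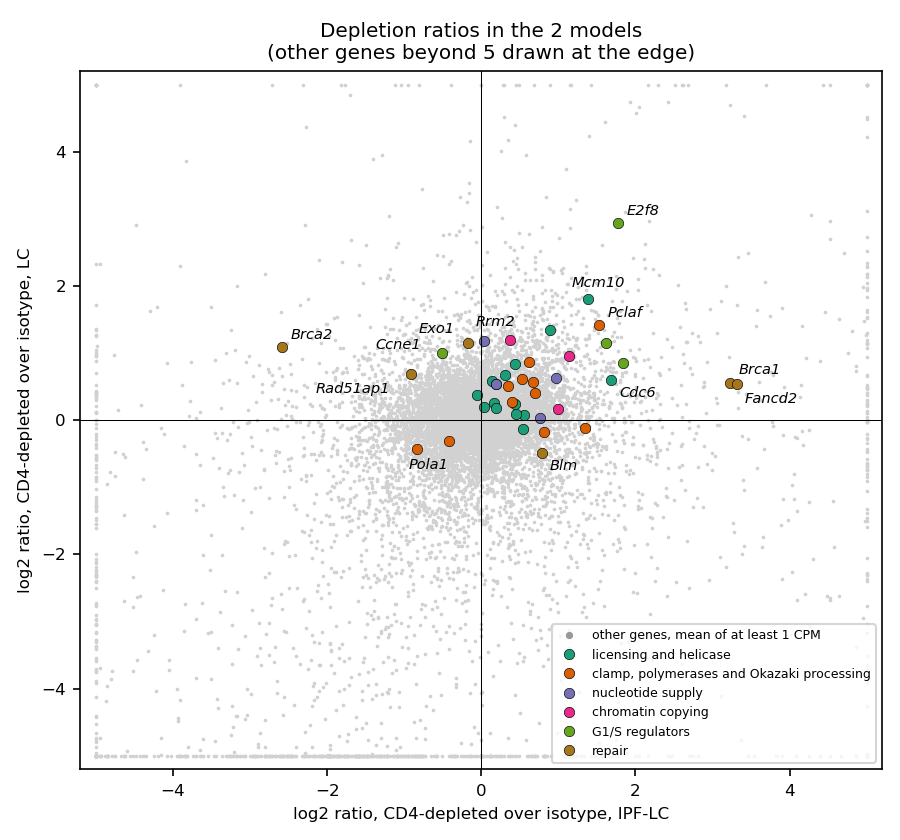
Log2 ratio of CD4-depleted over isotype in LC (vertical axis) against that in IPF-LC (horizontal axis), with the 43 genes coloured by role and other genes in grey. Most coloured points lie in the upper right part, which holds 32 of the 43, while Brca2 lies far left at -2.59 and Brca1 and Fancd2 far right at 3.23 and 3.31.

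The median depletion ratio was smaller among the genes of highest level than among those of lowest level. The 14 genes that averaged 50 CPM or more had median ratios of 0.19 in IPF-LC and 0.27 in LC, while the 10 that averaged under 10 CPM had 0.67 and 1.04. All 33 that averaged 10 CPM or more had 0.53 and 0.50. Genes between 10 and 50 CPM also had large ratios in IPF-LC, such as Brca1 at 3.23 and Ccne2 at 1.62. Among the 33 that averaged 10 CPM or more, depletion in IPF-LC had 6 genes at least 2-fold higher and depletion in LC had 4, where 4.08% and 2.59% of all 8433 genes of that level were. The 4 in LC were Pclaf, Rrm2, Uhrf1 and Ccne2, and the 6 in IPF-LC were Cdc6, Pclaf, Rfc3, Chaf1a, Ccne2 and Brca1.

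**Figure D3:**
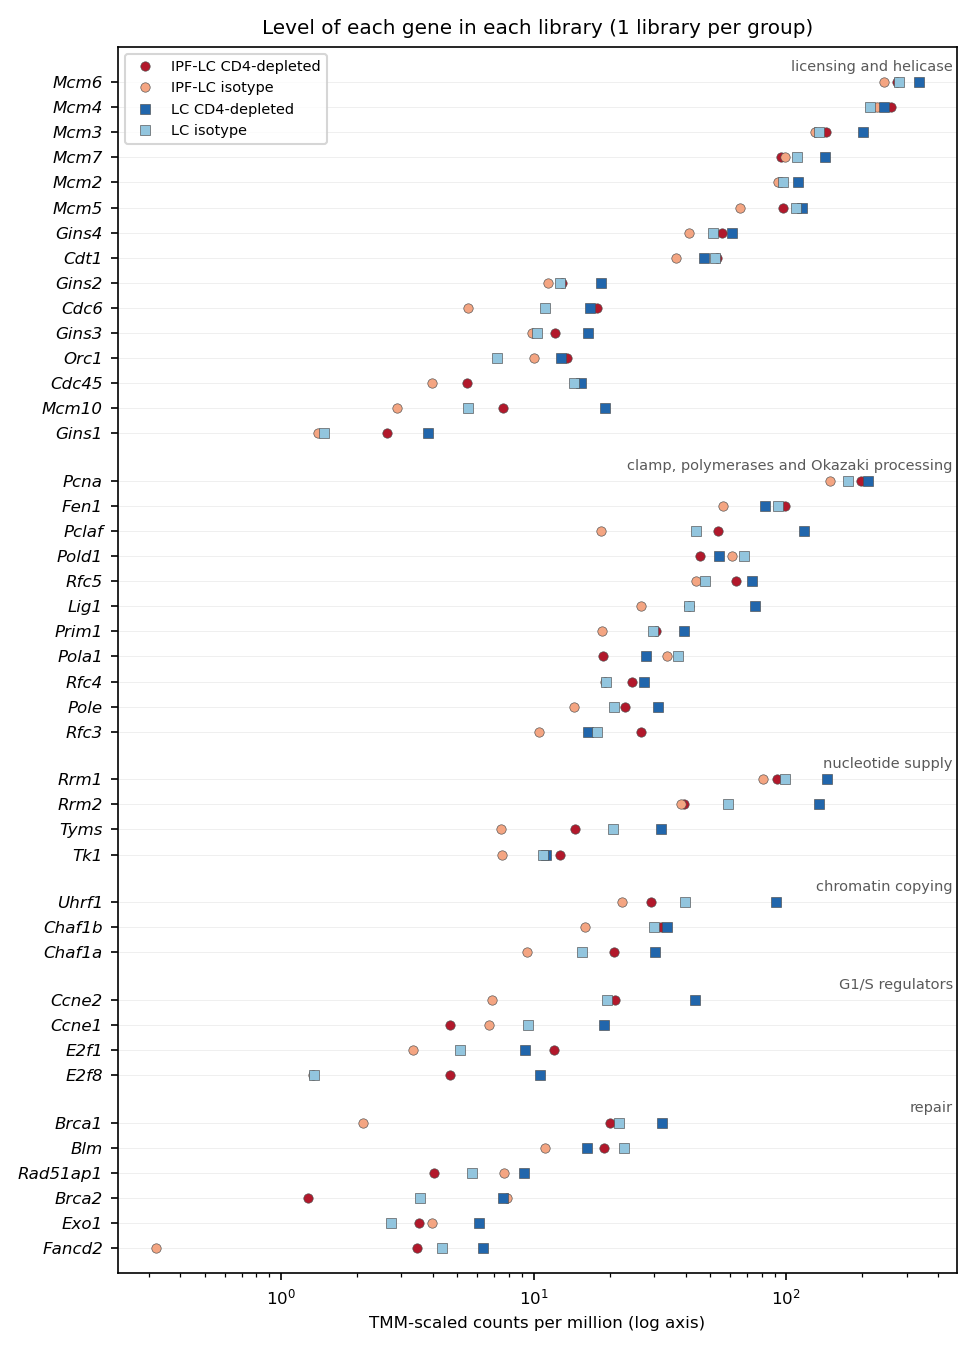
TMM-scaled CPM of each of the 43 genes (log axis) in each library, grouped by role and ordered by mean level, with red for IPF-LC, blue for LC, dark for CD4-depleted and light for isotype. The light red points, the IPF-LC isotype library, are the leftmost for 34 of the genes, and the spread between libraries is widest for genes of low level.

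The genes that license origins and drive the helicase made up 15 of the 43. With depletion, 14 of the 15 were above 0 in IPF-LC and 14 in LC, with medians of 0.43 and 0.37, though 5 in LC turned below 0 under pan-T-cell scaling. In each model 2 of the 15 were at least 2-fold higher, where 8.84% of all genes were in IPF-LC and 5.85% in LC. The 6 subunits of the Mcm2 to Mcm7 ring were abundant and close together. Their summed TPM was 503 in the IPF-LC CD4-depleted library, 439 in the IPF-LC isotype library, 618 in the LC CD4-depleted library and 529 in the LC isotype library. Within a library the highest subunit, Mcm6, was 3.33 to 3.66 times the lowest by TPM.

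Mcm6 had 274 and 244 CPM in the IPF-LC CD4-depleted and isotype libraries, and 335 and 279 CPM in the LC CD4-depleted and isotype libraries. Its depletion ratio was 0.17 (0.11 to 0.23) in IPF-LC and 0.26 (0.20 to 0.32) in LC. The depleted library was the higher one in both models by a small margin, and LC stood above IPF-LC. Mcm4 had 260 and 228 CPM in the IPF-LC CD4-depleted and isotype libraries, and 244 and 215 CPM in the LC pair. Its ratios were close to those of Mcm6, at 0.19 (0.12 to 0.25) in IPF-LC and 0.18 (0.12 to 0.25) in LC, and it was the only subunit above LC in both antibody groups, at 0.09 in each, though the isotype value turned below 0 by TPM and under pan-T-cell scaling.

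Mcm3, also in the ring, had 143 and 130 CPM in the IPF-LC CD4-depleted and isotype libraries, and 201 and 134 CPM in the LC pair. Its ratio was 0.14 (0.06 to 0.23) in IPF-LC and 0.58 (0.50 to 0.66) in LC, so the LC CD4-depleted library stood above the other 3. Mcm5, whose promoter window is printed above, had the opposite pattern. It had 96.8 and 65.8 CPM in the IPF-LC CD4-depleted and isotype libraries, and 116 and 109 CPM in the LC pair, with a ratio of 0.56 (0.44 to 0.67) in IPF-LC and 0.08 (-0.01 to 0.18) in LC. Here the IPF-LC isotype library alone was low.

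Mcm2 had 95.02 and 92.4 CPM in the IPF-LC CD4-depleted and isotype libraries, and 111 and 96.9 CPM in the LC pair. Its ratio in IPF-LC was 0.04 (-0.07 to 0.15), an interval that holds 0, and below 0 by TPM and when scaled on the total count, and it was 0.20 (0.10 to 0.30) in LC. The levels of the 4 libraries lay close together. Mcm7 had 95.02 and 99.0 CPM in the IPF-LC CD4-depleted and isotype libraries, and 142 and 110 CPM in the LC pair. Its ratio was -0.06 (-0.16 to 0.04) in IPF-LC and 0.37 (0.28 to 0.46) in LC, and by TPM the IPF-LC ratio was above 0. The LC ratios of Mcm2, Mcm4 and Mcm5 were below 0 under pan-T-cell scaling.

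The loaders and activators of the ring were less even. Cdc6, the ATPase that loads the ring with the origin recognition complex, had 17.8 and 5.50 CPM in the IPF-LC CD4-depleted and isotype libraries, and 16.7 and 11.1 CPM in the LC pair. The IPF-LC isotype library was low, and the ratio was 1.69 (1.34 to 2.06) in IPF-LC and 0.59 (0.31 to 0.88) in LC. Mcm10, which binds the helicase at origin firing, had 7.57 and 2.88 CPM in the IPF-LC CD4-depleted and isotype libraries, and 19.3 and 5.50 CPM in the LC pair. Both depleted libraries lay above both isotype libraries, with ratios of 1.38 (0.89 to 1.92) in IPF-LC and 1.80 (1.46 to 2.17) in LC. Cdc45, the helicase's partner, was low in both IPF-LC libraries, with 5.45 and 3.97 CPM in the IPF-LC CD4-depleted and isotype libraries and 15.4 and 14.4 CPM in the LC pair. Its depletion ratio was 0.46 (-0.03 to 0.96) in IPF-LC and 0.09 (-0.18 to 0.36) in LC, both intervals holding 0.

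Cdt1, the other loader, had 53.2 and 36.5 CPM in the IPF-LC CD4-depleted and isotype libraries, and 47.5 and 52.2 CPM in the LC pair, with ratios of 0.54 and -0.14. Orc1, the largest subunit of the origin recognition complex, had 13.6 and 10.05 CPM in the IPF-LC pair and 12.8 and 7.18 CPM in the LC pair, with ratios of 0.44 and 0.83. For Cdt1 the IPF-LC isotype library was low, and for Orc1 the isotype library was the lower one in both models.

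The 4 GINS subunits were all above 0 in both models, save that Gins4 in LC turned below 0 under pan-T-cell scaling. Their ratios in IPF-LC and LC were 0.89 and 1.34 for Gins1, 0.19 and 0.54 for Gins2, 0.31 and 0.67 for Gins3, and 0.43 and 0.24 for Gins4. Over the 4 libraries Gins1 ranged from 1.41 to 3.83 CPM, Gins2 from 11.4 to 18.4, Gins3 from 9.85 to 16.5 and Gins4 from 41.3 to 60.8, each lowest in the IPF-LC isotype and highest in the LC CD4-depleted library. The GINS complex holds 1 copy of each subunit, yet the transcripts were unequal. The highest, Gins4, was 11.5 to 22.0 times the lowest by TPM within a library.

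The sliding clamp, the polymerases and the enzymes that join Okazaki fragments made up 11 genes. With depletion, 9 of the 11 were above 0 in IPF-LC and 7 in LC, with medians of 0.62 and 0.41. Pclaf, a factor that binds the Pcna clamp, had 53.7 and 18.6 CPM in the IPF-LC CD4-depleted and isotype libraries, and 118 and 44.0 CPM in the LC CD4-depleted and isotype libraries. Within each model the depleted library was the higher one, by 2.89-fold in IPF-LC and 2.68-fold in LC, with log2 ratios of 1.53 (1.34 to 1.73) and 1.42 (1.29 to 1.55). Pcna itself, the highest of the 43 genes by mean TPM, differed far less. It had 197 and 149 CPM in the IPF-LC CD4-depleted and isotype libraries, and 211 and 175 CPM in the LC pair, with ratios of 0.40 (0.33 to 0.48) and 0.27 (0.20 to 0.35).

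Fen1 and Rfc3 had opposite signs in the 2 models. Fen1, the nuclease that trims the flaps of Okazaki fragments, had 98.8 and 56.0 CPM in the IPF-LC CD4-depleted and isotype libraries, and 82.4 and 92.7 CPM in the LC pair. The IPF-LC isotype library was the low one, with ratios of 0.82 (0.70 to 0.94) in IPF-LC and -0.17 (-0.28 to -0.06) in LC. Rfc3, a subunit of the loader that opens the clamp, had 26.7 and 10.5 CPM in the IPF-LC CD4-depleted and isotype libraries, and 16.4 and 17.9 CPM in the LC pair. Its ratio was 1.34 (1.08 to 1.62) in IPF-LC, and in LC -0.12 (-0.37 to 0.13), an interval that holds 0. The other loader subunits did not share this. Rfc4, between 19.2 and 27.4 CPM, had 0.35 and 0.50 in IPF-LC and LC. Rfc5, between 43.8 and 73.0 CPM, had 0.53 and 0.62. Rfc1 and Rfc2, from the further genes taken up below, were lower with depletion in both models. Their ratios in IPF-LC and LC were -0.63 and -0.30 for Rfc1, and -0.18 and -0.16 for Rfc2.

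The catalytic subunits of the polymerases were split. Pola1, which extends the primer made by primase, had 18.9 and 33.7 CPM in the IPF-LC CD4-depleted and isotype libraries, and 27.8 and 37.2 CPM in the LC pair. Pold1, of the lagging-strand polymerase, had 45.6 and 60.98 CPM in the IPF-LC CD4-depleted and isotype libraries, and 54.4 and 67.8 CPM in the LC pair. Both were lower in the depleted library in both models. The ratios in IPF-LC and LC were -0.83 (-1.05 to -0.63) and -0.42 (-0.61 to -0.24) for Pola1, and -0.42 (-0.56 to -0.28) and -0.32 (-0.45 to -0.18) for Pold1. Pole, of the leading-strand polymerase, had 23.0 and 14.4 CPM in the IPF-LC pair and 31.0 and 20.9 CPM in the LC pair, with ratios of 0.67 and 0.57. Prim1, the catalytic subunit of primase, had 30.5 and 18.7 CPM in the IPF-LC pair and 39.4 and 29.7 CPM in the LC pair, with ratios of 0.70 and 0.41. For both, the depleted library was the higher one in each model. Lig1, the ligase that seals Okazaki fragments, had 41.1 and 26.6 CPM in the IPF-LC pair and 75.3 and 41.4 CPM in the LC pair, with ratios of 0.62 and 0.86.

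Nucleotide supply was given by 4 genes, of which all 4 were above 0 in both models, save that Rrm2 in IPF-LC and Tk1 in LC turned below 0 under some of the other scalings. Only Rrm2, in LC, was at least 2-fold higher, where 5.85% of all genes were. Rrm2, the small subunit of ribonucleotide reductase, had 39.5 and 38.5 CPM in the IPF-LC CD4-depleted and isotype libraries, and 134 and 59.0 CPM in the LC pair. The IPF-LC pair was level, with a ratio of 0.04 (-0.12 to 0.20), and the LC ratio was 1.19 (1.07 to 1.30). Rrm1, the large subunit, had 92.2 and 80.9 CPM in the IPF-LC CD4-depleted and isotype libraries, and 145 and 99.1 CPM in the LC pair, with ratios of 0.19 (0.08 to 0.30) and 0.55 (0.45 to 0.64). For both subunits the LC CD4-depleted library stood above the other 3. Tyms, which makes thymidylate, had ratios of 0.98 in IPF-LC and 0.63 in LC. Tk1, the salvage kinase for thymidine, lay between 7.49 and 12.8 CPM and had 0.77 and 0.03, and the LC value was below 0 under 3 of the other scalings and by TPM.

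Of the 3 genes that carry chromatin through replication, all were above 0 in both models, save that Chaf1b in LC turned below 0 under pan-T-cell scaling. Uhrf1, which brings the maintenance DNA methyltransferase to new DNA, had 29.1 and 22.5 CPM in the IPF-LC CD4-depleted and isotype libraries, and 91.1 and 39.7 CPM in the LC pair. The LC CD4-depleted library stood apart, with ratios of 0.37 (0.17 to 0.58) in IPF-LC and 1.20 (1.06 to 1.34) in LC. The large subunits of the histone chaperone CAF-1 had the IPF-LC isotype library as their lowest. Chaf1a had 20.8 and 9.41 CPM in the IPF-LC CD4-depleted and isotype libraries, and 30.2 and 15.6 CPM in the LC pair, with ratios of 1.14 (0.86 to 1.44) and 0.95 (0.73 to 1.18). Chaf1b had 31.9 and 15.9 CPM in the IPF-LC CD4-depleted and isotype libraries, and 33.9 and 30.0 CPM in the LC pair, with ratios of 1.00 (0.78 to 1.23) and 0.17 (-0.01 to 0.36).

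The 4 regulators of the G1 to S step had the highest median ratios of the 6 roles, 1.70 in IPF-LC and 1.07 in LC, and 3 of the 4 were at least 2-fold higher in each model, where 8.84% of all genes were in IPF-LC and 5.85% in LC. Under pan-T-cell scaling 1 of the 4, E2f8, was 2-fold higher in LC. Ccne2, a cyclin E, had 21.0 and 6.85 CPM in the IPF-LC CD4-depleted and isotype libraries, and 43.4 and 19.6 CPM in the LC pair. Within each model the depleted library was higher, with ratios of 1.62 (1.30 to 1.95) and 1.15 (0.95 to 1.35). The other cyclin E gene, Ccne1, had 4.68 and 6.65 CPM in the IPF-LC CD4-depleted and isotype libraries, and 19.1 and 9.51 CPM in the LC pair. It was the regulator with opposite signs, at -0.50 (-0.96 to -0.06) in IPF-LC and 1.00 (0.71 to 1.30) in LC. E2f1, an activator of replication genes, had 12.0 and 3.33 CPM in the IPF-LC CD4-depleted and isotype libraries, and 9.25 and 5.11 CPM in the LC pair, with ratios of 1.84 (1.40 to 2.32) and 0.85 (0.45 to 1.27). E2f8, a repressor of the family, had 4.68 and 1.34 CPM in the IPF-LC CD4-depleted and isotype libraries, and 10.6 and 1.36 CPM in the LC pair. Both isotype libraries were near the low limit of 1 CPM, and the ratios were 1.78 (1.08 to 2.58) in IPF-LC and 2.93 (2.30 to 3.69) in LC.

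**Figure D4:**
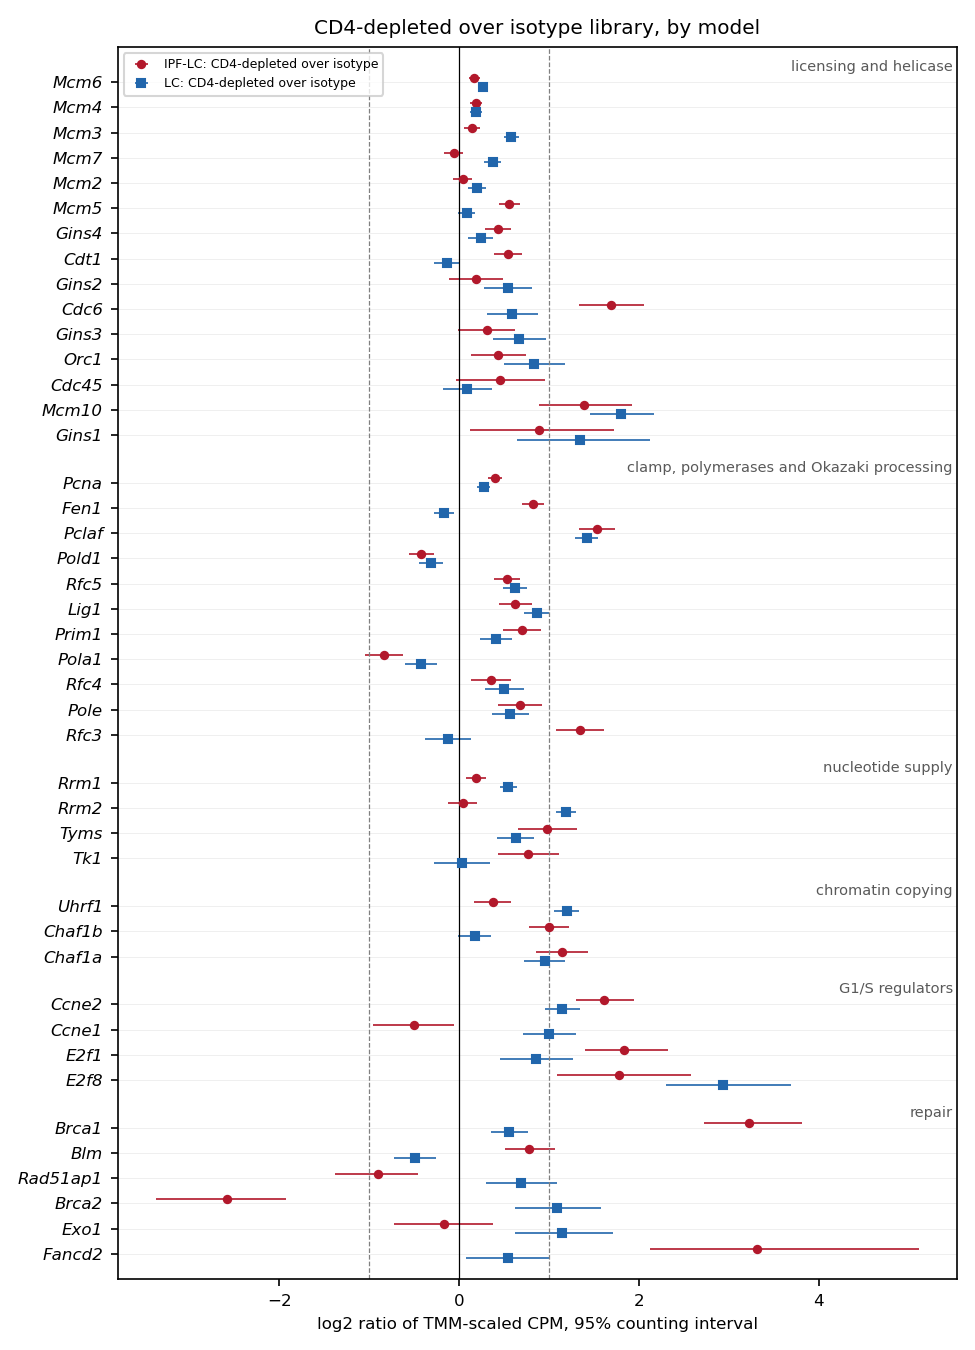
Log2 ratio of CD4-depleted over isotype for each of the 43 genes in IPF-LC (red circles) and LC (blue squares), with 95% counting intervals and dashed lines at 2-fold. Most points lie right of 0, Pola1 and Pold1 lie left of it in both models, and the widest distances between the models are those of Brca2, Fancd2 and Brca1.

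The 6 repair genes were the least alike. With depletion, 3 were above and 3 below 0 in IPF-LC, and 5 above and 1 below in LC. Brca1, which acts in repair by homologous recombination, had 313 and 33 counts in the IPF-LC CD4-depleted and isotype libraries, and 504 and 337 counts in the LC pair, which is 20.1, 2.11, 32.2 and 21.8 CPM in that order. The IPF-LC isotype library stood far below the other 3, so the ratio was 3.23 (2.73 to 3.81), or 9.38-fold, in IPF-LC and 0.56 (0.36 to 0.76) in LC. Blm, the helicase of the Bloom syndrome gene, had 19.1 and 11.1 CPM in the IPF-LC CD4-depleted and isotype libraries, and 16.3 and 22.8 CPM in the LC pair. Its ratios were 0.78 (0.51 to 1.06) in IPF-LC and -0.49 (-0.73 to -0.25) in LC. Rad51ap1, a factor of homologous recombination, ran the opposite way, with 4.04 and 7.61 CPM in the IPF-LC CD4-depleted and isotype libraries and 9.19 and 5.69 CPM in the LC pair, and ratios of -0.91 (-1.38 to -0.46) and 0.69 (0.30 to 1.09).

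Brca2, Fancd2 and Exo1 rested on few counts and on transcripts whose estimated length differed between libraries. Brca2, which acts in the same repair pathway as Brca1, had 20 and 123 counts in the IPF-LC CD4-depleted and isotype libraries, and 119 and 55 counts in the LC pair, with ratios of -2.59 (-3.38 to -1.93) and 1.09 (0.62 to 1.58). Its deposited length was 1586 and 4792 bases in the IPF-LC pair and 3763 and 2348 bases in the LC pair, and by TPM the ratios were -0.66 and 0.21. Fancd2, of the Fanconi anaemia pathway, had 54 and 5 counts in the IPF-LC pair and 99 and 67 counts in the LC pair, with ratios of 3.31 (2.13 to 5.12) and 0.54 (0.08 to 1.01), and by TPM the IPF-LC ratio was 0.88. Exo1, a 5′ to 3′ exonuclease, had 55 and 62 counts in the IPF-LC pair and 95 and 42 counts in the LC pair. Its LC ratio was 1.15 (0.62 to 1.72) by counts and -0.29 by TPM, so its direction turned with the unit. The longest and shortest deposited lengths were over 1.5 times apart for 5 genes, these 3 with Mcm10 and Cdc6, and within 1.1 times for 19. For Brca1 the ratio in IPF-LC by TPM was 2.34.

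Set against LC, the IPF-LC libraries were lower for most of the 43 genes under both antibodies. These comparisons use the same 4 libraries as the depletion ratios. In the CD4-depleted libraries 34 of the 43 were below and 9 above 0, where 5883 of all 12231 genes were below and 6132 above. The median of the 43 was -0.49, and 11 were at least 2-fold lower, where 7.61% of all genes were. They were Mcm10, Cdc45, Pclaf, Rrm2, Tyms, Uhrf1, E2f8, Ccne1, Ccne2, Brca2 and Rad51ap1. None of the 43 was at least 2-fold higher in IPF-LC there, where 9.59% of all genes were. In the isotype libraries 38 of the 43 were below and 5 above 0, where 6191 of all genes were below and 6027 above. The median of the 43 was -0.52, and 8 were at least 2-fold lower, where 11.7% of all genes were. They were Cdc6, Cdc45, Pclaf, Tyms, Ccne2, Brca1, Fancd2 and Blm. Brca2 alone was at least 2-fold higher in IPF-LC with isotype antibody, where 5.32% of all genes were, and by TPM it was at -0.06. The 105 further genes of these pathways, taken up below, shared this less. In the CD4-depleted libraries 31 of the 105 were above and 74 below 0, with a median of -0.22. In the isotype libraries 53 of the 105 were above and 52 below 0, with a median of 0.001.

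Pclaf, Cdc45, Tyms and Ccne2 were at least 2-fold lower in IPF-LC under both antibodies. The share of all genes that much lower under both was not counted. Cdc45 had ratios of -1.49 (-1.87 to -1.13) in the CD4-depleted libraries and -1.85 (-2.29 to -1.45) in the isotype libraries. Tyms, with 14.6 and 7.42 CPM in the IPF-LC CD4-depleted and isotype libraries and 32.0 and 20.7 CPM in the LC pair, had -1.13 and -1.48. Pclaf had -1.13 and -1.24, and Ccne2 -1.04 and -1.51. Rrm2 and Uhrf1 lay further apart in the depleted libraries, at -1.76 (-1.90 to -1.63) and -1.64 (-1.80 to -1.49), than in the isotype libraries, at -0.62 (-0.77 to -0.47) and -0.82 (-1.02 to -0.63), a difference that was not tested. Brca1 was the reverse, at -0.68 in the depleted and -3.35 (-3.93 to -2.85) in the isotype libraries.

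An additive edgeR quasi-likelihood fit over the 4 libraries was the main test across libraries. It had terms for model and antibody, and its only residual degree of freedom was their interaction. It called none of the 43 genes for depletion at an adjusted p under 0.05, and 0.0% of the 13045 genes tested. The fitted dispersion (spread between libraries beyond counting) was 0.228. In counts simulated at a dispersion of 0.2, the same fit found 0 of 100 genes changed 2-fold and 8 of 100 changed 4-fold. A gene that was not called is therefore not shown to be unchanged. The smallest adjusted p among the 43 was 0.368, that of Pclaf, whose fitted log2 change was 1.48 with a standard error of 0.21 and which was higher in the depleted library in both models. At an unadjusted p under 0.05, 7 of the 43 were higher and none lower, where 3.29% of all genes tested were higher. They were Pclaf, Ccne2, Lig1, Mcm10, Chaf1a, E2f8 and Rfc5. DESeq2 in the same design called 1 of the 43, Pclaf, higher with depletion, at an adjusted p of 0.0028 and a log2 change of 1.46 with a standard error of 0.36, where it called 0.767% of the genes tested higher. For model, edgeR called none of the 43 and 0.0% of all genes tested, with a smallest adjusted p among the 43 of 1.00. At an unadjusted p under 0.05, 7 were lower in IPF-LC, Pclaf, Uhrf1, Ccne2, Tyms, Rrm2, Cdc45 and Lig1, and none higher, where 1.11% of all genes tested were lower. DESeq2 called none of the 43 for model.

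A wider set of 105 further genes of the same pathways had smaller medians. With depletion, 12 of the 105 were at least 2-fold higher and 6 lower in IPF-LC, with a median of 0.02, and 9 higher and 2 lower in LC, with a median of 0.16. Of all genes, 8.84% were that much higher and 13.6% lower in IPF-LC, and 5.85% higher and 15.4% lower in LC. In the additive fit, edgeR and DESeq2 called none of the 105 for depletion at an adjusted p under 0.05, and 8 were higher and 3 lower at an unadjusted edgeR p under 0.05, where 3.29% and 6.02% of the genes tested were. The 8 further chromatin genes had medians of 0.36 in IPF-LC and 0.37 in LC, and the 15 further G1 to S genes 0.27 and 0.23. The 30 further checkpoint and repair genes had medians of -0.16 and 0.13, and the 20 further polymerase, clamp loader and RPA genes -0.16 and 0.15. The 20 further origin genes had medians of 0.09 and 0.22, and the 12 further nucleotide genes -0.07 and 0.11.

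Among the further genes, Ccna2, the cyclin of S phase and G2, had 22.6 and 8.45 CPM in the IPF-LC CD4-depleted and isotype libraries, and 57.6 and 18.4 CPM in the LC pair, with ratios of 1.42 and 1.64. E2f2 had ratios of 0.77 and 1.56, and E2f7, a repressor like E2f8, had 0.53 and 1.94. Pole2, the second subunit of the leading-strand polymerase, had 0.68 and 1.54, and Ticrr, which acts in origin firing, had 0.38 and 1.30. Others had a large ratio in 1 model: Prim2, the large primase subunit, had 2.10 in IPF-LC and 0.63 in LC, the nuclease and helicase Dna2 had 2.24 and -0.32, and the chromatin remodeller Hells had 1.83 and -0.47. Of the histone chaperones, Asf1b had 1.30 and 0.38, and Nasp 0.56 and 0.54. The recombination gene Xrcc2 had 1.01 and 0.72, and Gmps, of guanine nucleotide synthesis, had 0.82 and 0.03.

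Some further genes were lower with depletion. Cdc7, the kinase that triggers origin firing, had ratios of -1.09 in IPF-LC and -0.32 in LC, and Timeless, of the fork protection complex, had -0.41 and -1.61. Atm, the kinase that responds to double-strand breaks, had -0.87 and -0.60. Rrm2b, the alternative small subunit of ribonucleotide reductase, had -1.32 and 0.12, against 0.04 and 1.19 for Rrm2. Rmi2, a partner of Blm, had -1.51 and -0.00, and Shmt1, of one-carbon metabolism, had 0.02 and -0.71. The 20 genes of mitosis had medians of 0.59 in IPF-LC and 0.84 in LC, with 6 and 8 of them at least 2-fold higher and none lower. Of all genes, 8.84% and 5.85% were that much higher, and 13.6% and 15.4% lower. Among the 20, Ccnb1, the mitotic cyclin, had 1.46 and 1.34. DESeq2 called 1 of the 20, Cenpa, higher, where it called 0.767% of genes, and edgeR called 0 and had 7 higher at an unadjusted p under 0.05, where 3.29% of genes were.

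Some properties of the counting bear on single genes. The expected counts were not whole numbers for 9 of the 43, Mcm7, Gins2, Pcna, Rfc4, Rfc5, Fen1, Chaf1a, Ccne2 and Fancd2, and their values are uncertain where a near-identical copy shares reads. The exons of 15 of the 43 overlap those of another gene on the opposite strand in the older mouse annotation, among them Mcm7, Fen1, Ccne2, Chaf1a and E2f8. The labels do not state whether strand was used in counting, so it is not known whether the reads of such pairs were separated.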

How the data were processed

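Polyadenylated RNA of sorted lung CD8+ T cells was made into libraries by SMART-Seq v4 reverse transcription and NEBNext Ultra II preparation, as the labels' protocols state, with 1 library per group. Per the submitters' processing notes, MultiQC 1.25.2, RSEM 1.3.3, STAR 2.7.11a and fastp 0.23.4 were used, with no role given, and the build was GRCm39 (mm39). The annotation release and the use of strand are not given in the sources used here. The deposited tables give, per the file headers, the authors' expected counts (not normalised), their TPM and FPKM values, and gene lengths. FPKM was not used. Groups were taken from the sample labels, never from the wording of table names.

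Expected counts were rounded and scaled to CPM with TMM factors (edgeR 4.0.16, R 4.3.3). Log2 ratios used a prior count of 0.5 and exact conditional binomial 95% intervals. Background counts used genes that averaged 1 CPM or more. By TPM, ratios used a pseudocount of 0.5. The additive edgeR quasi-likelihood test, two-sided with Benjamini-Hochberg adjustment, ran on 13045 genes that passed filterByExpr. DESeq2 1.42.0 and limma 3.58.1 were alternatives. Scripts were tested on simulated data. Genes were matched by symbol to RefSeq promoters of GRCm38.p6, used for sequence only, and the annotation of that older build served for neighbouring genes only.

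Members and lists were chosen with earlier results of these data known. Of the members, those given in full are Mcm2 to Mcm7, the 2 of highest mean TPM in each role, and those that averaged 10 CPM or more and were at least 2-fold apart with depletion. Other members described in full were added after their values were seen. Of each further list, up to 3 genes with the largest mean ratio that averaged 5 CPM or more are named. Rfc1 and Rfc2 were added outside this rule, beside the listed loader subunits. The mitosis genes Kif11 and Foxm1 fall under the same rule and had depletion ratios in IPF-LC and LC of 0.88 and 1.38 for Kif11, and 1.11 and 1.91 for Foxm1.

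Markers of other cell types that the sort could hold were summed as CPM, given for the CD4-depleted and isotype libraries of IPF-LC and then for those of LC. They came to 4.62, 7.04, 2.42 and 98.9 for neutrophils, 296, 478, 342 and 379 for B and plasma cells, 97.9, 112, 46.4 and 222 for natural killer cells, 155, 250, 138 and 300 for endothelium, 53.4, 229, 17.2 and 350 for fibroblasts, 25.8, 44.1, 14.7 and 82.3 for epithelium, and 3.34, 15.4, 0.00 and 5.69 for erythroid cells.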

Additional observations from a re-analysis of the deposited data

Results flagged for a closer look

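The depletion ratio had opposite signs in the 2 models, with both counting intervals clear of 0, for 5 of the 43 genes, where 19.5% of all 12231 genes met the same rule, and since each group holds 1 library the difference was not tested. The ratio in IPF-LC minus that in LC, on the log2 scale, was 0.99 for Fen1, 1.27 for Blm, -1.51 for Ccne1, -1.60 for Rad51ap1 and -3.67 for Brca2. For Fen1 and Blm the IPF-LC isotype library was the lowest of the 4, and for Ccne1, Rad51ap1 and Brca2 the IPF-LC CD4-depleted library was. The Brca2 difference rests on 20 counts in the IPF-LC CD4-depleted library and on deposited lengths that differ between libraries.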

How the results depend on the processing

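No paired analysis was possible because each group holds 1 library, and no library could be left out of the additive fit, which would then have no residual degree of freedom. Among genes that averaged 10 CPM or more, 6 and 4 genes were at least 2-fold higher with depletion in IPF-LC and LC, 0 lower in IPF-LC, 5 lower in IPF-LC than LC in the CD4-depleted libraries and 0 higher in the isotype libraries, and the median difference between the depletion ratios of the models (IPF-LC minus LC) reversed to 0.10 against -0.09 as reported. At an average of 50 CPM or more, which leaves 14 genes, these counts were 1, 2, 0, 2 and 0, with 1 lower in the isotype libraries, and the medians were 0.19 and 0.27 for depletion and -0.26 and -0.21 for model. Scaling on pan-T-cell genes gave 4 genes at least 2-fold higher in LC with a median of 0.31, 0 higher in the isotype libraries with a median of -0.77, and a median difference of 0.29. It moved the median of all genes by 0.13, -0.25, 0.12 and -0.26 in depletion in IPF-LC, depletion in LC, and model with CD4-depleted and isotype libraries. By TPM the median difference was 0.0469, 0 genes were higher in the isotype libraries, and Brca2 there (-0.0608) and Exo1 with depletion in LC (-0.29) reversed. Requiring the whole interval beyond 2-fold left 5 genes higher with depletion in LC, 7 lower in the CD4-depleted libraries and 0 higher in the isotype libraries. Shares of all genes under changed settings, given above, were counted only for genes higher with depletion, and not at 50 CPM or by TPM. The other 2-fold counts in this paragraph stand without such a share. DESeq2 called 1 gene for depletion where edgeR called 0. The other edgeR settings and limma-voom called 0, with smallest adjusted p-values among the 43 genes between 0.113 and 0.380 for depletion. The causes were not tested. With 1 library per group, the spread between mice is unknown, and counts as low as 5 limit the repair genes.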

Other observations

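The ratio of CD4-depleted over isotype can also be read on summed TPM, which weights genes by level. For the 43 genes the summed TPM was 1.29 times that of the isotype library in IPF-LC and 1.25 times in LC, and in IPF-LC it was 0.757 times that of LC in the CD4-depleted libraries and 0.731 times in the isotype libraries. The 20 mitosis genes summed to 428 and 266 TPM in the IPF-LC CD4-depleted and isotype libraries, and to 623 and 368 TPM in the LC pair. A match to the searched E2F-type letters was held by 21 of 83 further pathway genes with a promoter window, 25.3%, and by 1 of 16 mitosis genes, 6.25%.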
